A study of Mus musculus with 15 samples.

Results

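The monocyte and macrophage genes described here are 10 of the 22180 genes measured in the series. They are Spi1, Irf8, Csf1r, Ccr2, Ly6c2, Lyz2, Chil3, Mmp8, Fn1 and F13a1. Each was taken from probe sets of the array that carry exactly 1 gene symbol, and the probe set with the highest mean over all arrays stood for the gene, which left a choice only for Irf8, with 11 probe sets for the 10 genes. The genes were picked because earlier results of these arrays showed most of them higher after culture. Their differences between cultured and non-cultured cells are therefore given as a description with no test, and the comparison of the 2 cultured groups is the one that was tested.

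The arrays hold RNA of mouse LSK cells, the sorted bone marrow fraction that lacks lineage markers, carries Sca-1 and Kit, and contains the hematopoietic stem and early progenitor cells. There were 3 groups of 5 biological replicates: cells straight after sorting (non-cultured), cells kept for 18 h in Myelocult Medium M5300 without extracellular vesicles (EV), and cells kept for 18 h in the same medium with EV derived from AFT stromal cells. From 500 pg of total RNA, biotin-labelled cRNA of every sample was read on its own Affymetrix Mouse Gene 2.0 array. The labels do not give strain, age, genotype, the number of animals behind a replicate or the dose of EV, and they name no treatment shared by all groups other than the sort. Kit had a mean log2 signal of 9.62 in non-cultured cells, Cd34 of 10.63 and Flt3 of 8.97. The T cell gene Cd3g and the B cell gene Ms4a1 had group means below a log2 signal of 3.73, the 25th percentile of gene means, in all groups. Of the 11 lymphoid, erythroid and megakaryocyte markers, however, only 3 were below it in non-cultured cells. Cd79a (3.95), Cd8a (4.48), Klf1 (4.58), Itga2b (6.72) and Pf4 (6.81) were among those above it. Sca-1 (Ly6a) was not analysed here. Because the samples are bulk RNA, more cells of a kind and more RNA per cell cannot be told apart.

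Monocytes and macrophages arise from stem cells through granulocyte and monocyte progenitors. The ETS factor PU.1, encoded by Spi1, opens the myeloid program already in stem cells, and the interferon regulatory factor IRF8 acts with it to steer progenitors to monocytes and away from neutrophils. The growth factor receptor CSF1R carries the survival signal of the lineage, the chemokine receptor CCR2 brings inflammatory monocytes out of the marrow, and Ly6C marks those cells. Lysozyme, the chitinase-like protein Ym1 (Chil3), the collagenase MMP8, fibronectin (Fn1) and the A chain of coagulation factor XIII (F13a1) are products of the maturing cells. Chil3, Mmp8 and Lyz2 are made by granulocytes as well.

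After 18 h, 9 of the 10 genes lay higher in each cultured array than in each non-cultured array, with EV or without. Spi1 was the exception, with overlapping groups. Over all 22180 genes, 5.89% lay wholly higher without EV than in non-cultured cells and 5.06% wholly higher with EV, while 6.1% and 6.18% lay wholly lower. The members were chosen on this difference, so nothing is read from the count. On the log2 scale the differences without EV ran from 0.29 to 5.26 with a median of 2.17, against a median of 0.01 over all genes. With EV they ran from 0.32 to 5.25 with a median of 2.11, against 0.04 over all genes. The 2 comparisons share the 5 non-cultured arrays.

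**Figure D1:**
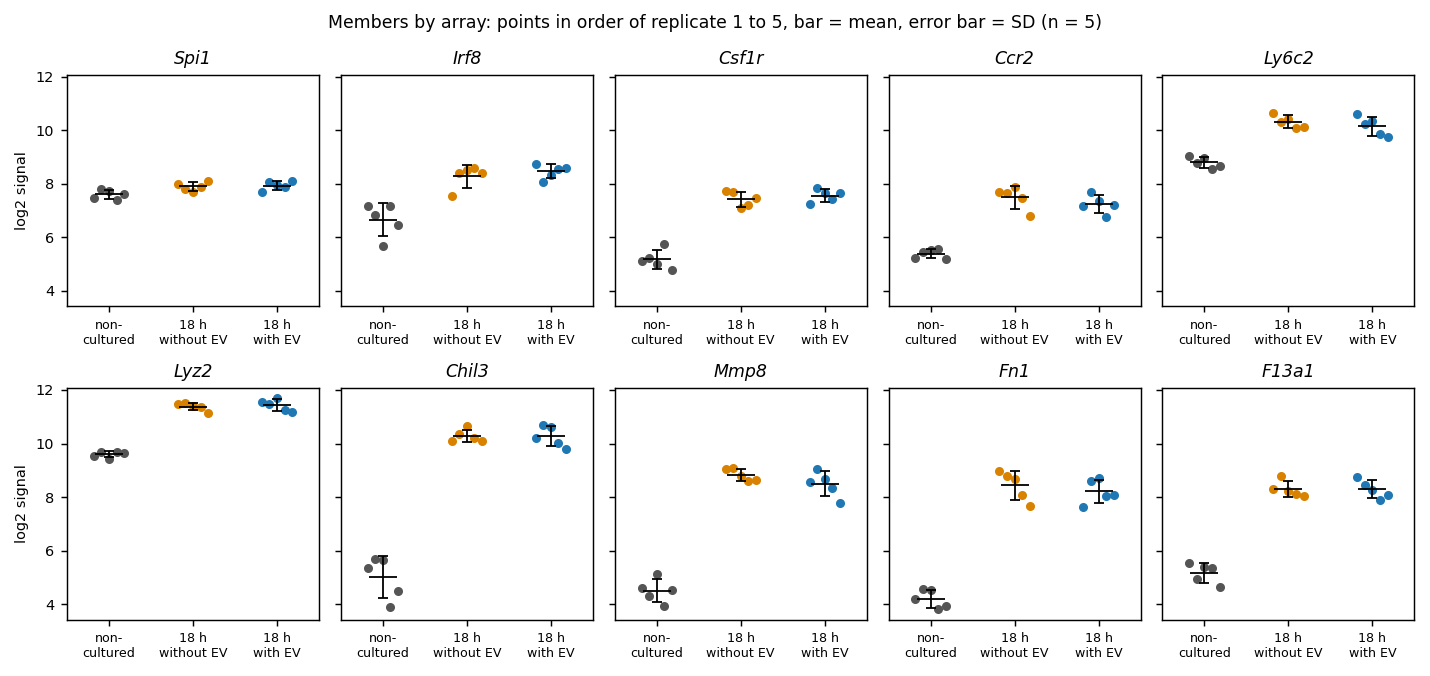
Log2 signal (y axis) of the 10 genes in the 3 groups of 5 arrays. Points stand in order of replicate 1 to 5, the bar is the mean and the error bar the SD. Cultured arrays lie above non-cultured arrays without overlap in every panel but that of Spi1, and the 2 cultured groups overlap in every panel.

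The transcription factors came first in order of role. Spi1 was already well expressed in non-cultured cells, with log2 signals of 7.47, 7.80, 7.74, 7.41 and 7.62 in replicates 1 to 5. Without EV the values were 7.99, 7.82, 7.71, 7.87 and 8.11, and with EV they were 7.67, 8.07, 7.94, 7.88 and 8.09. Non-cultured replicates 2 and 3 reached into the range of the cultured arrays, and 23 of the 25 pairs of arrays were higher in culture in either comparison. The means differed 1.22-fold without EV (log2 0.29, SE 0.11) and 1.25-fold with EV (log2 0.32, SE 0.11). Irf8 moved further. Its non-cultured values were 7.17, 6.83, 5.68, 7.16 and 6.48, the widest spread of these genes in that group after Chil3 (SD 0.62 against 0.79). Culture without EV gave 7.53, 8.42, 8.51, 8.59 and 8.40, and culture with EV gave 8.74, 8.08, 8.32, 8.57 and 8.60. The groups did not overlap, although replicate 1 without EV stood only 0.37 above the highest non-cultured array. The Irf8 difference was 3.09-fold without EV (log2 1.63, SE 0.26) and 3.48-fold with EV (log2 1.80, SE 0.26). A dimmer probe set of Irf8 also separated the groups, from 5.44 to 5.91 in non-cultured cells, from 6.02 to 6.79 without EV and from 6.53 to 7.06 with EV. Its difference was smaller, at log2 0.89 (SE 0.15) without EV and 1.20 (SE 0.15) with EV, so the probe sets share the direction and not the size.

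The receptors followed. Csf1r, the receptor for the macrophage growth factors CSF1 and IL-34, had log2 signals of 5.14, 5.23, 5.01, 5.74 and 4.80 in non-cultured cells. Values of 7.71, 7.68, 7.08, 7.19 and 7.45 were measured without EV, and of 7.26, 7.84, 7.65, 7.41 and 7.65 with EV. The lowest cultured array without EV stood 1.35 above the highest non-cultured one, and with EV the gap was 1.52. The means differed 5.21-fold with EV (log2 2.38, SE 0.17) and by log2 2.24 (SE 0.17) without. Ccr2, the receptor for the chemokine CCL2, had 5.22, 5.45, 5.52, 5.57 and 5.19 in non-cultured cells. Without EV it had 7.68, 7.64, 7.88, 7.45 and 6.78, and with EV 7.19, 7.68, 7.34, 6.76 and 7.21. One array of each cultured group, replicate 5 without EV and replicate 4 with EV, was lower than the rest of its group, and both stayed above all non-cultured arrays. The Ccr2 means differed 3.59-fold with EV (log2 1.85, SE 0.19) and by log2 2.10 (SE 0.19) without. The surface gene Ly6c2 ran from 8.54 to 9.04 in non-cultured cells, from 10.07 to 10.65 without EV and from 9.74 to 10.59 with EV. Its signal was high before culture, and the difference of 2.56-fold with EV (log2 1.36, SE 0.16) was the smallest of the set after that of Spi1, as was the log2 1.52 (SE 0.16) without EV.

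The secreted and granule products held the largest differences. Lysozyme Lyz2 was bright throughout, from 9.42 to 9.69 in non-cultured cells, from 11.15 to 11.51 without EV and from 11.16 to 11.69 with EV, and its means differed 3.55-fold with EV (log2 1.83, SE 0.11). The chitinase-like gene Chil3 had log2 signals of 5.34, 5.69, 5.65, 3.89 and 4.50 in non-cultured cells. It reached 10.10, 10.34, 10.64, 10.22 and 10.10 without EV and 10.22, 10.68, 10.60, 10.03 and 9.81 with EV. Non-cultured replicates 4 and 5 were lower than the other 3, and without them the difference went from log2 5.26 to 4.72 in culture without EV and from 5.25 to 4.71 with EV. The collagenase gene Mmp8 had 4.62, 4.30, 5.12, 3.93 and 4.53 in non-cultured cells, 9.04, 9.10, 8.77, 8.60 and 8.62 without EV, and 8.57, 9.05, 8.69, 8.34 and 7.79 with EV. Here the gap between the closest arrays was 3.48 without EV and 2.67 with EV, and the means differed by log2 4.32 (SE 0.23) and 3.99 (SE 0.23).

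The fibronectin gene Fn1 had 4.20, 4.57, 4.51, 3.82 and 3.92 in non-cultured cells. Cultured arrays held 8.96, 8.78, 8.68, 8.10 and 7.68 without EV and 7.63, 8.60, 8.69, 8.05 and 8.09 with EV. Arrays within a cultured group differed by more than 1 log2 unit, yet the lowest stood 3.06 above the highest non-cultured array. The means differed 16.1-fold with EV (log2 4.01, SE 0.25). F13a1, whose product crosslinks fibrin and fibronectin, had 5.55, 4.93, 5.37, 5.35 and 4.62 in non-cultured cells, 8.31, 8.80, 8.22, 8.11 and 8.03 without EV, and 8.76, 8.45, 8.25, 7.91 and 8.06 with EV. Its differences of 8.74-fold without EV (log2 3.13, SE 0.20) and 8.69-fold with EV (log2 3.12, SE 0.20) lay close together. No signal over background is given with the values, so the non-cultured level of the dimmer genes, Fn1 at a mean of 4.21 and Mmp8 at 4.50, cannot be told from background, and their folds depend on it. The same limit holds for Chil3 in non-cultured replicates 4 and 5, at 3.89 and 4.50.

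The promoters of 4 of these genes are shown because they pair the largest difference of the set (Chil3) with genes whose windows hold sequences that myeloid factors are known to bind. They are the 250 bases before the start of the gene, 5′ to 3′ on the strand of the gene, from RefSeq (build GRCm38.p6). Capitals mark GAGGAA, the core that PU.1 prefers, and TTGCNNAA, a form of the C/EBP site, on either strand.
Chil3, chr3:106167565-106167814, minus strand: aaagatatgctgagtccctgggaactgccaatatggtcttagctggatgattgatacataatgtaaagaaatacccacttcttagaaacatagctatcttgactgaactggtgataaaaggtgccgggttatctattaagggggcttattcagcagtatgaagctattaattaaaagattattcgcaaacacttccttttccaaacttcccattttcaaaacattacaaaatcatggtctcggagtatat
Mmp8, chr9:7558179-7558428, plus strand: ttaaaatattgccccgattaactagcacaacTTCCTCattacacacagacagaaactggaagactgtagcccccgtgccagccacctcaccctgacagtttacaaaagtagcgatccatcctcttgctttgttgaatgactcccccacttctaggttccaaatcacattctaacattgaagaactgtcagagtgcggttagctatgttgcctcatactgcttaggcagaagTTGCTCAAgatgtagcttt
Ly6c2, chr15:75111938-75112187, minus strand: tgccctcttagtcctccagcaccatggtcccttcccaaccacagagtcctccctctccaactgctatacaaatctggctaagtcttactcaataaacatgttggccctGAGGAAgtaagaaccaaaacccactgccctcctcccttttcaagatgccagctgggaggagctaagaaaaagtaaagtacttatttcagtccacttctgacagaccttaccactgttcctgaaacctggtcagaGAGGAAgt
F13a1, chr13:37050245-37050494, minus strand: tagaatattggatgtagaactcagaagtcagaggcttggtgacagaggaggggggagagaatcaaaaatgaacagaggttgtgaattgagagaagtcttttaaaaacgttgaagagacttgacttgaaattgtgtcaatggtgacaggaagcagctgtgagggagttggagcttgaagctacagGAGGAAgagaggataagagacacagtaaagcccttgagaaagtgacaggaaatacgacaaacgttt
In the window of Mmp8, GAGGAA lies on the opposite strand, at bases -219 to -214 from the start, and the C/EBP form at -19 to -12. Ly6c2 holds GAGGAA at -142 to -137 and at -8 to -3. F13a1 holds it at -66 to -61 in the window shown and not in its other window. The Chil3 window holds neither. RefSeq windows were found for 7 of the 10 genes and were 10 in number, since Ly6c2, Irf8 and F13a1 have more than 1 start, and those of Ly6c2 overlap. Fn1, Csf1r and Spi1 had no entry. GAGGAA was in 4 of the 10 windows, where those of Ly6c2 share the site at -142 to -137. It was in 23.3% of all 32851 windows of this length, and TTGCNNAA was in 1 of 10 and in 9.56%. The composite site of PU.1 and IRF8, searched as GGAA and GAAA with 2 bases between them and able to overlap GAGGAA, was in 0 of 10 and in 2.30%. TATAAA on the strand of the gene, searched as the TATA box, was in 1 of 10, a window of Irf8, and in 7.59%. These are matches of letters in short windows and not binding sites.

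The test of EV against no EV in culture asks whether the vesicles altered these genes. The 2 cultured groups overlapped for all 10 genes, with 4 differences above 0 and 6 below, where 0.762% of all genes lay wholly higher with EV and 0.437% wholly lower. None of the 10 passed limma's test, with 0 called after Benjamini-Hochberg adjustment (threshold 0.05, all 22180 genes) and 0 at an unadjusted p under 0.05. Of all genes 0.198% were called, 0.18% higher and 0.018% lower, and 1513 of the 22180 had an unadjusted p under 0.05 in limma. At such a share, 0 of 10 says little about the members. The members were chosen on arrays without EV among others, and this comparison shares those arrays. The median difference of the 10 was log2 -0.01, against 0.01 over all genes. Adjusted p ran from 0.808 to 0.998 in limma.

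Mmp8 had the lowest difference, log2 -0.33 (95% interval -0.81 to 0.14), with the array with EV higher in 6 of 25 pairs. Ccr2 differed by -0.25 (95% interval -0.66 to 0.15), also higher in 6 of 25 pairs, and Fn1 by -0.23 (-0.77 to 0.31). For Ly6c2 the difference was -0.16 (-0.51 to 0.18). These 4 differences lay below 0, and every interval included 0. Within replicates 1 to 3 Fn1 differed by -0.50 and within replicates 4 and 5 by 0.18, so its direction turned between these sets. Leaving out 1 array moved Fn1 to between -0.08 (without replicate 1 with EV) and -0.42 (without replicate 5 without EV), and Ccr2 to between -0.13 (without replicate 4 with EV) and -0.43 (without replicate 5 without EV). On the other side, Irf8 differed by 0.17 (-0.39 to 0.73), with the array with EV higher in 16 of 25 pairs, and Csf1r by 0.14 (-0.23 to 0.50). The dimmer Irf8 probe set differed by 0.31 (SE 0.15, limma adjusted p = 0.727 over 23521 probe sets). The narrowest intervals belonged to Spi1, at 0.03 (-0.20 to 0.26), and Lyz2, at 0.04 (-0.19 to 0.28). Chil3 and F13a1 each differed by -0.01, with intervals of -0.63 to 0.61 and -0.43 to 0.41. As ratios of with EV to without EV, the intervals of all 10 genes lay between 0.569 and 1.65. The interval of Lyz2 ran from 0.877 to 1.21 times, and that of Mmp8 reached down to 0.569 times.

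**Figure D2:**
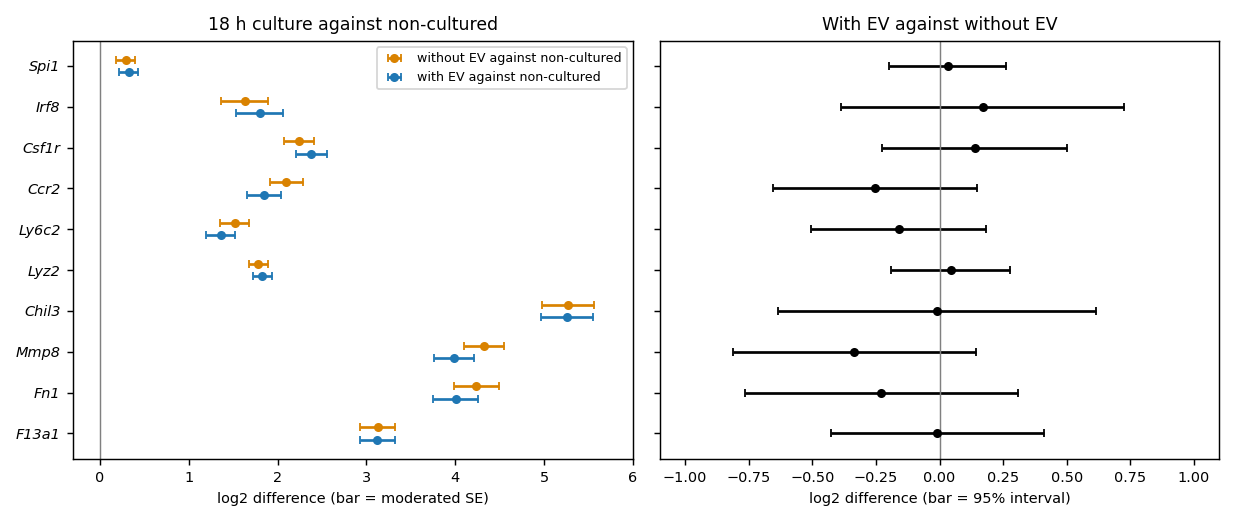
Log2 differences (x axis) of the 10 genes (y axis), n = 5 arrays a group. The left panel gives each cultured group against non-cultured cells with moderated standard errors, where Chil3 reaches 5.26 and Spi1 0.29. The right panel gives EV against no EV with 95% intervals, all of which include 0, on an axis that spans a narrower range.

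Genes of the same lineage outside the set were counted from lists written down for this work with earlier results of these data known. Their counts and p-values are therefore no independent test of a rise in culture. Of 30 measured surface genes of monocytes, 17 rose in culture without EV and 0 fell (limma, adjusted p under 0.05), where 6.75% of all genes rose and 6.88% fell. Their median difference was log2 0.91, against 0.01 over all genes. Tyrobp, the signalling adaptor of myeloid receptors, rose 3.03-fold (log2 1.60, SE 0.12, limma adjusted p = 1.11e-07), its means being 8.79 before and 10.39 after culture. Csf2rb, the shared chain of the receptors for GM-CSF, IL-3 and IL-5, rose 3.51-fold (SE 0.25 on the log2 scale), the lectin Cd33 2.97-fold (SE 0.23), the inhibitory receptor Cd300a 2.60-fold (SE 0.19) and the scavenger receptor Msr1 2.18-fold (SE 0.16). The remaining 13 of the 30 did not pass. Among them, Cx3cr1 differed by log2 0.60 (SE 0.21, limma adjusted p = 0.0748), Itgam by 0.55 (SE 0.20, adjusted p = 0.0826) and Cd14 by -0.07 (SE 0.15, adjusted p = 0.858). With EV against non-cultured cells, 17 of the 30 rose and 0 fell, with a median of log2 0.70, where 6.28% of all genes rose and 7.85% fell (1394 and 1741 genes). That split moved with the scaling, to 996 higher and 2122 lower when each array was centred on its median. Without non-cultured replicates 4 and 5, 17 rose in culture without EV and 14 with EV.

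Among 32 measured effector genes, 18 rose without EV and 2 fell, where 6.75% of all genes rose and 6.88% fell. Their median was log2 0.80. The calcium-binding protein gene S100a4 rose 4.07-fold (log2 2.02, SE 0.13, limma adjusted p = 2.59e-08) and Mpeg1, a pore-forming protein of macrophages, 4.16-fold (SE 0.22). Ncf1, a subunit of the phagocyte oxidase, rose 3.40-fold (SE 0.16), the lysosomal Psap 2.60-fold (SE 0.12) and Alox5ap, which serves leukotriene synthesis, 2.06-fold (SE 0.11). The 2 that fell, named after their values were seen, were the interferon-induced Ifitm3 (log2 -0.71, SE 0.15) and S100a10 (log2 -0.62, SE 0.20). With EV 19 rose and 2 fell. Between the cultured groups, 0 of 82 surface, effector and transcription factor genes were called by limma, and 1 had an unadjusted p under 0.05. Of all 22180 genes, 0.198% were called and 1513 had an unadjusted p under 0.05.

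Where 6.75% of all genes rose and 6.88% fell without EV (6.28% and 7.85% with EV), transcription factors of the myeloid line moved both ways. Of the 20, 4 were higher and 5 lower without EV, with a median of log2 0.07. The 5 that fell included 4 immediate early factors, which respond to stimulation: Nr4a1, needed for patrolling monocytes, by log2 -5.39 (SE 0.11), Egr1 by -4.23 (SE 0.21), Jun by -3.65 (SE 0.25) and Egr2, named because it completes the count, by -0.96 (SE 0.24). Klf4, a monocyte factor and the other that fell, fell 5.79-fold (log2 -2.53, SE 0.26), from 8.65 to 6.12. Tfec, a factor of the macrophage line, rose 2.30-fold (SE 0.25), Stat3 1.27-fold (SE 0.08) and Spic, a relative of PU.1, 2.09-fold (SE 0.30). The other relative, Spib, differed by log2 -0.04 (SE 0.12). The granulocyte and monocyte factors Cebpa (log2 0.06, SE 0.16), Cebpb (0.31, SE 0.10) and Gfi1 (-0.08, SE 0.13) did not pass. In the IRF family, Irf1 (log2 -1.17, SE 0.15) and Irf7 (-0.69, SE 0.16) fell while Irf3 (0.63, SE 0.15) and Irf2 (0.50, SE 0.14) rose, all without EV, and with EV 0 of the 6 rose and 3 fell. Without non-cultured replicates 4 and 5, those counts were 2 and 3 in either culture. Irf4 (-0.36, SE 0.27) and Irf9 (-0.30, SE 0.17) did not pass.

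Ligands and partners of the members were measured in the same RNA. None of the 6 ligands of CSF1R and CCR2 was called in any of the 3 comparisons. Of all genes, 0.198% were called for EV against no EV. Against non-cultured cells 13.6% were called without EV and 14.1% with EV, so 0 of 6 says little about the ligands. Ccl8 and Ccl12 had group means below a log2 signal of 3.73 in all groups. Csf1 differed by log2 -0.49 (SE 0.16, limma adjusted p = 0.0509) without EV. Leaving out non-cultured replicates 4 and 5 gave 1 lower call in the list. Il34 differed by log2 0.09 (SE 0.11) and Ccl2 by -0.44 (SE 0.36). Of 13 partners of fibronectin, factor XIII and collagenase, 2 rose and 1 fell without EV. The integrin chain Itgb3 rose by log2 3.70 (SE 0.19), Itga5, of the main fibronectin receptor, 1.52-fold (SE 0.14), and the urokinase receptor Plaur fell 5.34-fold (log2 -2.42, SE 0.23). Itgb1 (log2 -0.36, SE 0.12) and Itga4 (0.28, SE 0.10) did not pass. Without non-cultured replicates 4 and 5, 2 rose and 3 fell.

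Most close relatives of the members were not called. Ly6c1, Chil4 and Chil1 had group means below a log2 signal of 3.73 in all groups, so little can be read from a lack of change in them. Ly6c1 differed by log2 -0.33 (SE 0.14) without EV, Lyz1 by 0.51 (SE 0.20), Chil4 by 0.46 (SE 0.22) and Chil1 by 0.04 (SE 0.17), and none of these 4 passed limma's test in that comparison. Ly6e alone of the 6 measured relatives was called, with a rise of log2 0.30, where 6.75% of all genes rose and 6.88% fell. With EV, Lyz1 was called higher than in non-cultured cells (log2 0.85, limma adjusted p = 0.0080), and 2 of the 6 were called, or 1 without non-cultured replicates 4 and 5. Probes of such near copies may share signal, so Ly6c2, Lyz2 and Chil3 are uncertain to that extent. Of 8 other CC chemokine receptors, Ccr1 alone was called without EV, 1.89-fold higher (SE 0.13), at a mean log2 signal of 3.39 in non-cultured cells. Of 12 other matrix metalloproteinases, 3 rose: Mmp14 3.10-fold (SE 0.19), Mmp2 1.80-fold (SE 0.21) and Mmp19 1.74-fold (SE 0.22). The gelatinase Mmp9 of neutrophils and macrophages differed by log2 0.05 (SE 0.11).

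**Figure D3:**
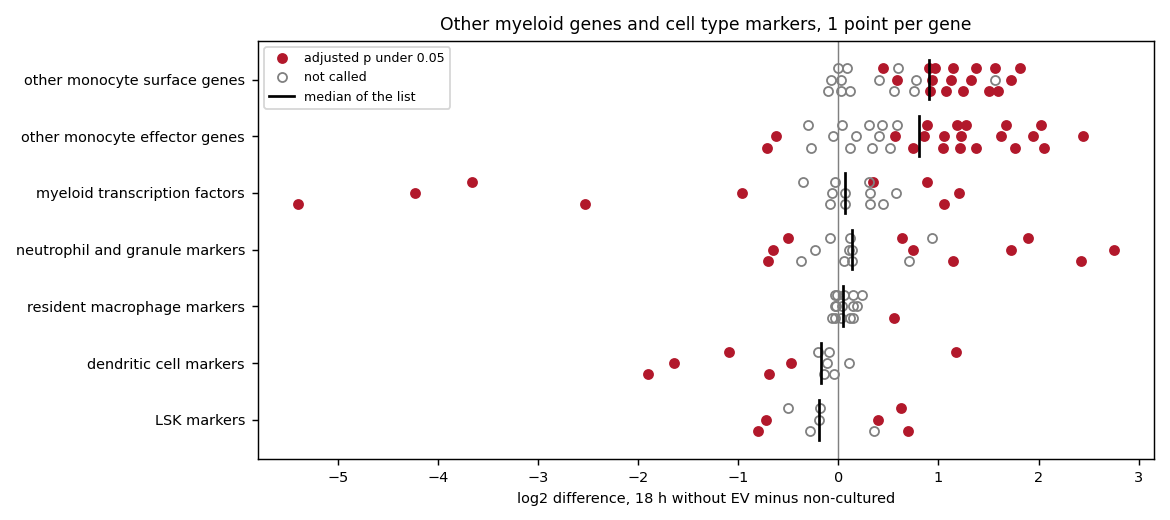
Log2 difference of culture without EV against non-cultured cells (x axis) for the genes of 7 lists (y axis), 1 point per gene. Filled points have a limma adjusted p under 0.05 and the bar is the list median, at 0.91 for monocyte surface genes, 0.80 for effector genes and 0.05 for resident macrophage markers.

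Markers of other cell types were read beside these results. Of 20 neutrophil and granule markers, 7 rose and 3 fell without EV, where 6.75% of all genes rose and 6.88% fell. With EV 4 rose and 2 fell, where 6.28% of all genes rose and 7.85% fell. Leaving out non-cultured replicates 4 and 5 gave 5 and 2 without EV and 4 and 4 with EV. S100a8 rose 6.73-fold (log2 2.75, SE 0.56), S100a9 5.38-fold (SE 0.56), Lcn2 3.71-fold (SE 0.30) and Cxcr2 2.21-fold (SE 0.26), whereas the early granule gene Mpo fell 1.58-fold (log2 -0.66, SE 0.12) and Elane differed by 0.11 (SE 0.25). The summed linear signal of the 20 ran from 2681 to 4876 in non-cultured arrays, from 4959 to 6918 without EV and from 5434 to 6536 with EV. S100a8 and S100a9 weigh heavily in that sum. Their mean log2 signals equal 263 and 246 in linear units in non-cultured cells, and 1769 and 1323 without EV. The median difference of the 20 was log2 0.14 without EV and 0.25 with EV, so the sum does not stand for the whole list. The neutrophil marker Ly6g stayed below a log2 signal of 3.73 in every group mean. The part of these genes in the results for Chil3, Mmp8 and Lyz2 was not tested.

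Of 16 markers of resident macrophages, 1 rose and 0 fell in either culture. That is near the share of all genes that rose, 6.75% without EV and 6.28% with EV. The marker that rose was Adgre1, which encodes F4/80, 1.47-fold higher without EV (SE 0.13), at a mean log2 signal of 3.89 before culture and 4.44 after. The sum of the 16 ran from 323 to 348 in non-cultured arrays, from 343 to 384 without EV and from 348 to 435 with EV. Vsig4 and Mertk were below 3.73 in all groups. Among 12 dendritic cell markers, 1 rose and 5 fell without EV, including the class II genes H2-Aa (log2 -1.90, SE 0.19) and H2-Ab1 (-1.64, SE 0.26), with Siglech higher (1.18, SE 0.23). Their sum ran from 896 to 972 in non-cultured arrays, from 498 to 639 without EV and from 551 to 788 with EV. LSK markers were mixed, with 3 of 10 higher and 2 lower without EV, namely Flt3 (log2 0.63), Gata2 (0.69) and Kit (0.39) against Mecom (-0.73) and Cd48 (-0.80). Without non-cultured replicates 4 and 5 none of the 10 was called lower, with 3 higher and 0 lower. Their sum ran from 3838 to 4619, from 4483 to 4736 and from 3613 to 4676 in the same order of groups.

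Among lymphoid, erythroid and megakaryocyte markers 1 of 11 rose without EV, among mast cell and basophil markers 1 of 6, and among stromal markers 0 of 13. The 1 of 11 was the megakaryocyte marker Itga2b (log2 1.02, SE 0.14). Pf4, the other megakaryocyte marker, differed by log2 0.73 (SE 0.26, limma adjusted p = 0.0783). Of all genes 6.75% rose without EV. The stromal list held the only calls of EV against no EV among these markers, Ddr2 (log2 2.31, SE 0.19) and Cald1 (0.68, SE 0.09). With EV against non-cultured cells 5 of the 13 rose, or 2 without non-cultured replicates 4 and 5. Its summed signal ran from 284 to 314 in non-cultured arrays, from 291 to 310 without EV and from 334 to 455 with EV. Postn, Lum and Dcn were below 3.73 in all groups. Sums of the first 2 lists ran from 322 to 392, from 484 to 719 and from 402 to 587, and from 170 to 201, from 227 to 316 and from 196 to 325. The part of these cells in the results was not tested.

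Replicate 1 with EV stood apart from its group, with a mean correlation to the other 4 arrays of 0.964, against 0.974 to 0.976 for those. It alone set the upper end of the resident macrophage sum with EV, 435 against 348 to 368 in the other 4, and of the dendritic cell sum, 788 against 551 to 618. It also set the lower end of the LSK sum, 3613 against 4432 to 4676.

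Replicates 4 and 5 differed from the other 3 in a shared way. In each of the 3 groups the 2 lowest means over the 10 members belonged to replicates 4 and 5: at most 6.11 in non-cultured cells against 6.30 to 6.33 in the other 3, 8.76 and 8.64 without EV against 8.93 to 9.04, and 8.61 and 8.62 with EV against 8.82 to 9.02. The neutrophil and granule sum was also lowest in replicates 4 and 5 of every group, at 2795 and 2681 in non-cultured cells against 4797 to 4876 in the others. S100a8 there had log2 signals of 5.92 and 6.42 against 9.20 to 9.37. The labels do not say that a number marks a batch. Within replicates 1 to 3 the median member difference was log2 2.35 without EV and 2.24 with EV against non-cultured cells, and within replicates 4 and 5 it was 1.90 and 2.01, with all 10 above 0 in each case. For EV against no EV, the medians were 0.05 with 6 genes above 0 and -0.07 with 3 above 0. S100a8 differed by log2 1.69 without EV within replicates 1 to 3 and by 4.34 within replicates 4 and 5.

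**Figure D4:**
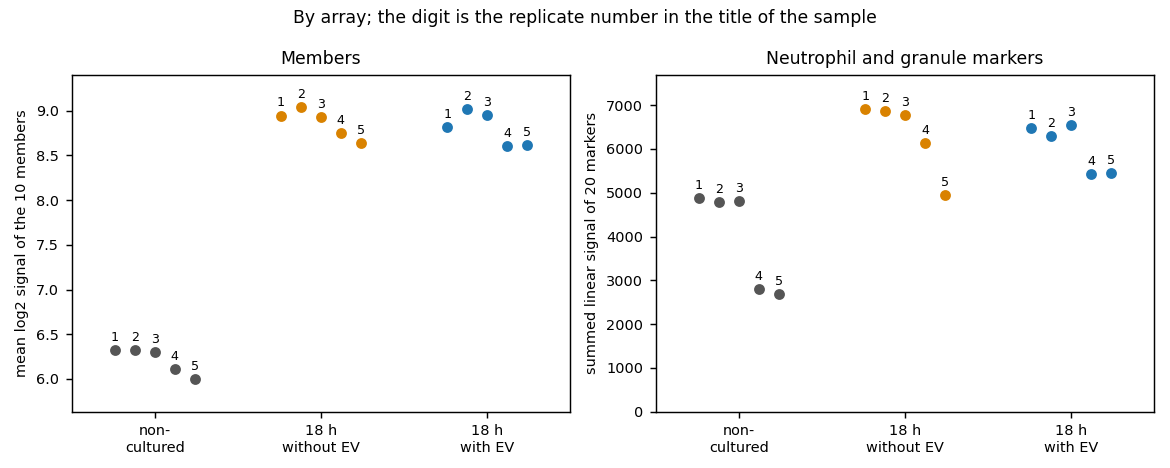
Mean log2 signal of the 10 members (left) and summed linear signal of 20 neutrophil and granule markers (right) for each array, with the replicate number above each point. Replicates 4 and 5 are the lowest of their group in both panels, for example at most 6.11 for the members in non-cultured cells against 6.30 or more in the other 3.

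The genes with the most similar course over the 15 arrays were found by the root mean square difference of mean-centred log2 signals, a measure led by the step from non-cultured to cultured cells. Tyrobp was nearest to both Lyz2 (0.21) and Ly6c2 (0.20). Hmox1, the heme oxygenase, was nearest to Chil3 (0.51), and Csf2rb2, a receptor chain for IL-3, to Mmp8 (0.49) and Fn1 (0.56). The receptor genes Lifr (0.29) and Cxcr4 (0.35) led for Csf1r. Melanophilin (Mlph, 0.29) and S100a4 (0.31) led for Ccr2, Fgd3 (0.35) for Irf8, the haptoglobin gene Hp (0.40) for F13a1 and Zmiz1 (0.11) for Spi1. Among the members themselves, Lyz2 lay nearest to Ccr2 and to Ly6c2 (0.28 each), and Fn1 to Mmp8 (0.36).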

How the data were processed

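The series holds 15 samples of mouse LSK cells in 3 groups of 5, grouped by the sample titles. The deposited table gives 41345 probe sets as log2 values by their range (1.40 to 13.0), with the base not stated. The submitters' processing notes list MAS5 and no other tool or version, and what the authors did for background and normalization is not stated there. The median of an array was 4.62 to 4.74, and the log2 values were used as deposited. The platform annotation names 23521 probe sets with 1 symbol and 1814 with several, and 16010 are unnamed here. Only probe sets with 1 symbol were kept, and the brightest probe set of each gene left 22180 genes.

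A group-means model over all 15 arrays was fitted with limma 3.58.1 in R 4.3.3 (lmFit, eBayes), with Benjamini-Hochberg adjustment over all genes, 2-sided, at adjusted p under 0.05. The fit was tested on simulated data. Intervals are 95% moderated ones, and their precision rests on the number of arrays.

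The members and lists were chosen with earlier results of these data known. Named were all members, per list up to 6 genes with the smallest adjusted p without EV against non-cultured and any called for EV, a fixed group of marker and family genes, and the 3 genes most like each member. Alternatives were quantile normalization, median centring, a filter on dim genes, the mean of all probe sets, the spread of 2 groups alone, array weights, the replicate block, non-cultured replicates 4 and 5 left out, and each array left out. P-values measure the spread between these samples, which the series design text calls biological replicates. Promoters were read from RefSeq (GRCm38.p6).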

Additional observations from a re-analysis of the deposited data

Results flagged for a closer look

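Of 30 groups of 5 arrays (10 genes in 3 groups) searched for a single array far from the rest by the Dixon test, 1 stood out, where chance gives about 1 in 20. Irf8 in replicate 1 without EV had a log2 signal of 7.53, against 8.40 to 8.59 in the other 4 arrays, and the gap to the nearest was 0.817 of the range of the group. Without that array the difference of EV against no EV for Irf8 was log2 -0.02.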

How the results depend on the processing

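In 24 alternative fits, 1 of them (a block of replicates 1 to 3 against 4 and 5) added after the data were examined, 0 of the 10 members were called for EV against no EV by limma, and the members' adjusted p stayed at or above 0.63. The count of genes called for EV against no EV ran from 29 to 53 when 1 array was left out, with the lowest count without replicate 2 without EV, and was 32 with the spread of 2 groups alone and 44 in the fit reported. Other monocyte genes called without EV against non-cultured numbered 43 to 48 of 82 when 1 array was left out and 46 in the fit reported, and 42 to 49 and 48 with EV. Over all alternatives 718 member differences counted as unchanged and 2 as moved, those of Chil3 without non-cultured replicates 4 and 5 (log2 4.72 and 4.71). Against non-cultured cells, unchanged meant a shift smaller than the spread between arrays. For EV against no EV it meant no change of call, with either the same sign or a shift below that spread. The differences of EV against no EV of Lyz2, Chil3, Irf8, F13a1 and Spi1 crossed 0 in at least 1 alternative, and those of Ly6c2, Ccr2, Fn1, Mmp8 and Csf1r kept their sign in the 24 fits, although Fn1 turned within replicates 4 and 5 (log2 0.18). With the replicate block 39 genes were called for EV against no EV, 2987 for culture without EV and 3063 with EV, and 0 members for EV. Over all genes, deviations of same-numbered arrays from their group means correlated between -0.12 and 0.19. That does not settle whether same-numbered arrays are paired. Replicates 4 and 5 were the lowest of every group in the member mean and in the neutrophil and granule sum. Signal over background is not given, so dim genes are limited by it.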
